A study of Homo sapiens with 14 samples.

Results

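The enzymes and remodelers that read, write, erase and reposition the marks of chromatin were followed through total mRNA, light polysomes and heavy polysomes of MDA-MB-231 cells with and without DAP5. Members were taken by symbol: the KMT2, KMT5 and SETD methyltransferases, the KDM demethylases, the HDAC deacetylases, EP300 and EP400, the CHD remodelers, the SMARC proteins and the ARID proteins. These names matched 93 of the 58434 symbols counted, and the 74 with at least 50 counts in 2 or more of the 4 total mRNA libraries are the members described here. The 19 others were pseudogenes, antisense and intronic transcripts and weakly expressed genes such as CHD5, HDAC10 and KDM4D. The cells, MDA-MB-231, are an established line from a human breast cancer and of mesenchymal character. All cultures carried a stable, doxycycline-inducible shRNA in a lentiviral vector, in lines selected with puromycin and sorted for the vector's fluorescent reporter. All received doxycycline at 1 µg/mL for 6 days, so that the controls carry an induced vector too. The control cultures expressed a non-silencing shRNA (shNSi) and the others an shRNA against DAP5 (shDAP5), with 2 cultures of each. Each culture gave libraries of total mRNA, light polysomes and heavy polysomes, and the shNSi cultures also a moderate polysome library, which makes 14 libraries in 7 groups. The shDAP5 light libraries are titled light but carry the letter code that the shNSi moderate libraries carry, and the shDAP5 total libraries are titled total polysome. The light libraries were taken by their title, against their code, as light polysome. The total libraries were taken as total mRNA because their code ends in T, like that of the shNSi totals.

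DAP5, encoded by EIF4G2, is a relative of the scaffold factor eIF4G that lacks the eIF4E binding site and supports translation initiation apart from the eIF4E cap-binding complex. mRNAs loaded with many ribosomes sediment in heavy polysomes, and those with few in light polysomes, so the share of an mRNA in each pool depends on the rate of initiation and on how many ribosomes its coding sequence can hold. Chromatin regulators act at opposite ends of the same marks. KMT2, KMT5 and several SETD enzymes add methyl groups to histone lysines and KDM enzymes remove them (other SETD proteins, such as SETD3 and SETD6, are known for substrates other than histones), EP300 acetylates histones and HDAC enzymes remove the acetyl groups. SMARC, CHD and EP400 proteins supply ATPases and partner subunits of machines that slide, eject or exchange nucleosomes, and ARID proteins give several of these machines their DNA contacts. Many of them are recurrently mutated in cancer, among them ARID1A, SMARCA4, KMT2C, KMT2D and SETD2.

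Because the question concerns initiation, the bases around the annotated start codon are shown for the 8 members whose heavy translation efficiency changed most towards lower values and for 4 of those that changed most towards higher values. Each line gives 9 bases of the 5' leader, the start codon in capitals and the next base, read from the GENCODE 29 transcripts (GRCh38) on the mRNA strand.
SMARCA1: tcccacggcATGg
CHD4: cggaaggggATGg
ARID4A: ccaacaaaaATGa
SMARCAD1: tctaccaatATGa
SMARCA5: cggaacatcATGt
SMARCC2: ccggagaagATGg
SMARCA4: cccgtgaagATGt
KDM3B: gccccggcgATGg
HDAC8: aagcggaagATGg
KMT5C: cagggcaccATGg
ARID5A: ctccgggccATGg
SETD9: ggggcagccATGc
The first 8 have lower values after DAP5 silencing and the last 4 higher values that did not pass the test. A purine 3 bases before the start codon with a G directly after it (ANNATGG or GNNATGG on the mRNA strand) stands in SMARCA1, CHD4, SMARCC2 and KDM3B of the first set and in HDAC8, KMT5C and ARID5A of the second. Among all genes tested with a usable start context 45.3% of 12146 hold it, and 48.5% of the 68 members read (33 of 68). The 19 members lower in heavy translation efficiency held it in 10 cases (52.6%) and the 49 not called in 23 (46.9%). These shares are given as a description of the sequences.

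Library totals ran from 25899838 to 30795910 counts, and the 74 members together took between 0.283% and 0.681% of them. The mesenchymal genes VIM and CD44 were at 5152 ± 111 and 554 ± 97.8 CPM (counts per 1000000 counts of the scaled library, mean ± SD, n = 2) in shNSi total mRNA, PGR had no count in any total library and CDH1 was at 0.122 ± 0.0788 CPM, in a line known as mesenchymal and hormone receptor negative. FN1 was at 153 ± 49.4 CPM, EPCAM at 4.10 ± 0.590 CPM and ESR1 at 0.344 ± 0.0169 CPM in the same libraries. ERBB2, taken as another low marker of this line, was at 60.7 ± 9.51 CPM and so was clearly expressed. EIF4G2 was at 1391 and 1358 CPM in the total mRNA of the shNSi cultures and at 525 and 730.0 CPM in that of the shDAP5 cultures. Both shDAP5 values lay below both shNSi values in every fraction, and the change in total mRNA was -1.11 (log2, SE 0.18, adjusted p = 0.0172 in the quasi-likelihood test of edgeR). The heavy libraries differ within each line. The median member stood at 0.48 and 1.11 on the log2 scale of heavy over total in the shNSi cultures, and at 0.24 and -0.39 in the shDAP5 cultures 1 and 2. The smallest p that exact permutation of 4 cultures in 2 lines can give for 1 value is 0.333. The tests given are therefore fits over all genes. Their p-values rest on a spread between cultures that is moderated across genes, and reflect the spread of a single gene only in part.

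Silencing of DAP5 left the total mRNA of the chromatin regulators without a detected change. Of the 74 members 0 were lower and 0 higher, where 0.267% of 14992 genes were lower and 0.0867% higher. SMARCAD1 alone had an unadjusted p under 0.05, against 1799 genes (12%) of all tested, and DESeq2 called none of the members. The median member change was 0.05 on the log2 scale and that of all genes 0.01, and the single members ranged from -0.57 to 0.44. SMARCAD1, a remodeling ATPase that acts on chromatin behind replication forks, was at 39.2 and 36.4 CPM in shNSi and 45.5 and 55.0 CPM in shDAP5 total mRNA, a change of 0.44 (SE 0.20, adjusted p = 0.389). CHD4, the ATPase of the NuRD repressor complex, was at 170.1 and 261 CPM against 146 and 169.8 CPM, a change of -0.42 (SE 0.21, adjusted p = 0.448). HDAC4, a class II deacetylase, was at 12.2 and 13.2 CPM against 18.2 and 15.1 CPM, a change of 0.41 (SE 0.23, adjusted p = 0.509). The shDAP5 values of SMARCAD1 and HDAC4 lay above both shNSi values, and the higher shDAP5 value of CHD4 lay just under the lower shNSi value. In bulk RNA, fewer cells with an mRNA and less of it in each cell cannot be told apart.

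Heavy polysomes held less of many of these mRNAs in the shDAP5 cultures than in the shNSi cultures. Only the shNSi gradient has a moderate library, and the labels do not say whether the heavy pools of both lines cover the same fractions. A different cut of the gradient and DAP5 silencing therefore cannot be told apart here. Of the 74 members 28 were lower (37.8%) and 0 higher, where 16.7% of 14270 genes were lower and 14.2% higher, and the median member change was -0.59 against 0.09 over all genes. The members called lower were 7 of 13 SMARC, 5 of 8 CHD, 4 of 8 ARID, 7 of 16 KDM, EP300 and EP400, 2 of the 17 KMT2, KMT5 and SETD genes and 1 of 10 HDAC genes. CHD4 had the lowest change. It was at 249.9 and 784 CPM in the heavy polysomes of the shNSi cultures and at 115 and 84.1 CPM in those of the shDAP5 cultures, a change of -2.18 (SE 0.38, adjusted p = 6.09e-06). The groups did not overlap, but the gap between the 2 shNSi cultures was wider than that between the lower of them and shDAP5 culture 1. SMARCA4, the ATPase of the SWI/SNF complex also called BRG1, was at 288 and 581 CPM against 133 and 101 CPM, a change of -1.71 (SE 0.36, adjusted p = 0.000105). KMT2D and KMT2A, very large methyltransferases that act at enhancers and promoters, were the members of their family called, at -1.03 (adjusted p = 0.0133) and -0.82 (adjusted p = 0.0472). HDAC6, a cytoplasmic deacetylase of tubulin, was the deacetylase called, at -1.02 (SE 0.33, adjusted p = 0.0128). Scaling to library size without TMM moved the median of all genes from 0.09 to 0.34 and the calls among members to 7 lower and 3 higher, where 3643 of 14270 genes were called. Against the shNSi moderate pool 0 members were lower (median 0.40), where 50 of 14539 genes were called, and against the summed pools 1 was lower (median -0.15), where 421 of 15184 were called. With offsets for coding length, described below, 1 was lower and 1 higher (median 0.14), where 1478 of 12130 genes were called. Without shDAP5 culture 2 no member was called, where 2 of 14891 genes were, and without shNSi culture 2 there were 8, where 2106 of 14957 genes were.

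The change in heavy polysomes relative to total mRNA, the heavy translation efficiency, was lower for 19 of the 74 members (25.7%) and higher for 0, where 8.23% of 15374 genes were lower and 4.85% higher. The median member change was -0.69 on the log2 scale against 0.09 over all genes, and 58 members (78.4%) had negative values, as had 45.6% of all genes. For 46 members (62.2%) the log2 ratio of heavy over total was lower in both shDAP5 cultures than in either shNSi culture, as for 33.6% of all genes, and for 5 (6.76%) both lay above, as for 25.8% of all genes. The other 23 overlapped. The 19 were SMARCA1, SMARCA2, SMARCA4, SMARCA5, SMARCAD1, SMARCC1, SMARCC2, CHD1, CHD4, CHD8, ARID1A, ARID4A, EP300, EP400, KDM1A, KDM3B, KDM4A, KDM4B and KDM5B. The plot of change by family shows how the calls of edgeR fell: 7 in SMARC, 5 in KDM, 3 in CHD, 2 in ARID, both of EP300 and EP400, and none among 10 HDAC and 17 KMT2, KMT5 and SETD genes. Some of these last genes, HDAC6 and KMT2D among them, were called under other settings given with their families. Whether families differed from each other was not tested.

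**Figure D1:**
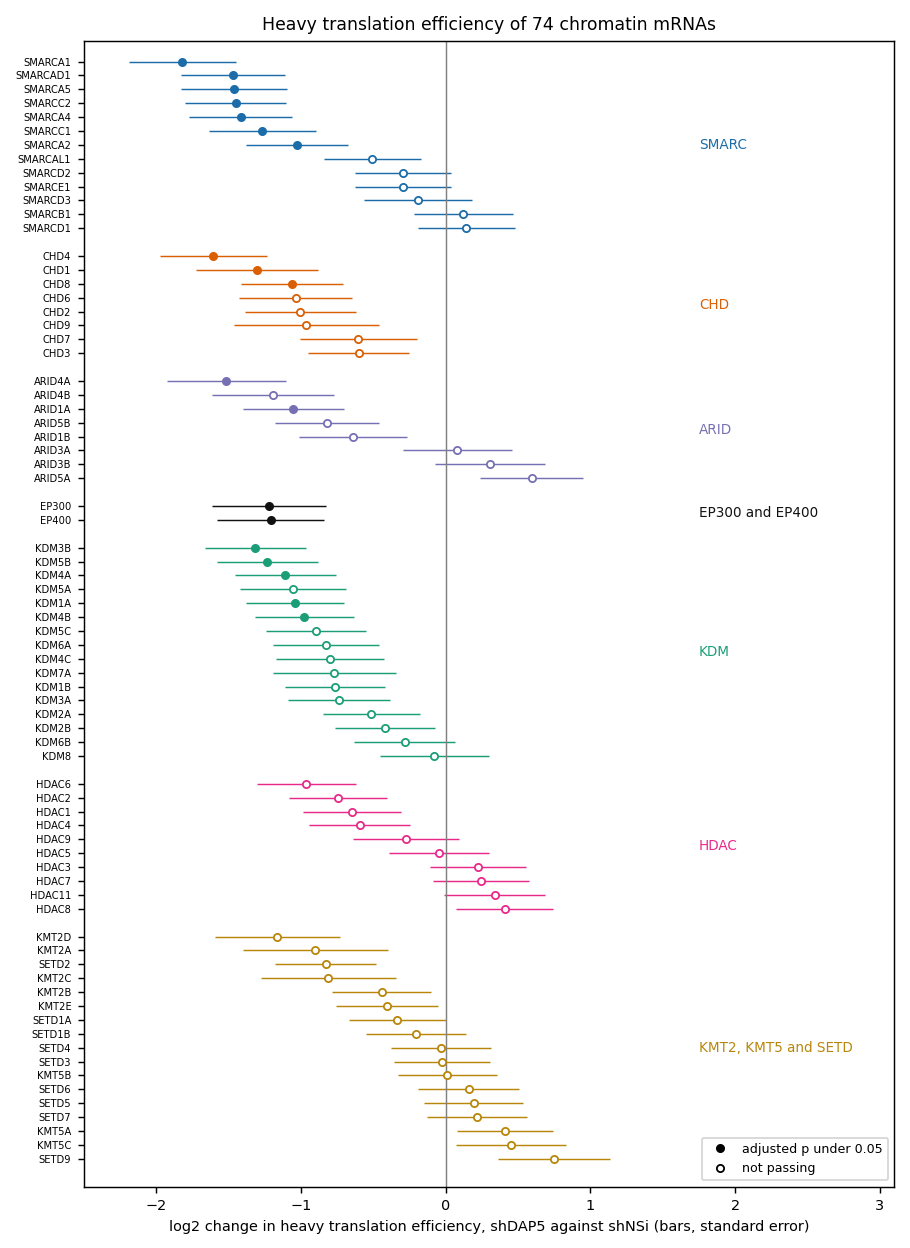
Change in heavy translation efficiency (log2, shDAP5 against shNSi, x axis) of the 74 members ordered within 7 families (y axis), with the standard error of the fit as bars and filled points for an adjusted p under 0.05 (edgeR). The 19 filled points lie between -1.82 and -0.98, all in the SMARC, CHD, ARID, EP300 and EP400 and KDM groups.

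These counts depend on single libraries, on the scaling and on which pool serves as control. Without shDAP5 culture 2 there were 0 lower members and 43 of 15914 genes called, and without shNSi culture 2 there were 0 and 4 of 15976. Without shNSi culture 1 there were 14 lower members and 572 of 15917 genes called, and without shDAP5 culture 1 there were 39 and 4515 of 15845. Against the shNSi moderate pool in place of the shNSi heavy pool, 0 members were lower and the median member change was 0.27, and the 8 lowest members described next all had positive values. Scaling to library size without TMM gave 0 lower members and 0 of 15374 genes called, limma on quantile-normalized values gave 2 lower members and 757 genes called, and a fit without a term for each culture gave 0 lower members and 0 genes called.

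In the SWI/SNF complex, a remodeler that opens chromatin at enhancers and promoters, most of the large subunits were lower and the small subunits were not called, and the subunits differ in coding length too. Both ATPases and 3 of the 4 scaffold and large subunits (SMARCC1, SMARCC2 and ARID1A, with ARID1B not called) were lower, while 0 of 5 small subunits were called, with changes between -0.30 and 0.14. The coding sequences run from 3315 to 6855 nucleotides in the ATPases and large subunits and from 1155 to 1593 in the small ones, and among other genes 30.6% and 36.2% were lower in the 2 longer length ranges given below and 7.12% in the shortest. SMARCA4 was at 167 and 186 CPM in shNSi and 136 and 159 CPM in shDAP5 total mRNA, beside the heavy levels given above. Its log2 ratio of heavy over total was 0.79 and 1.64 in the shNSi cultures and -0.03 and -0.66 in the shDAP5 cultures, a change of -1.42 (SE 0.36, adjusted p = 0.0106). Both shNSi cultures lay above zero and both shDAP5 cultures below it. SMARCA2, the alternative ATPase, had ratios of 0.59 and 1.25 against 0.13 and -0.63 and a change of -1.03 (SE 0.35, adjusted p = 0.0439). SMARCC2, a scaffold subunit around which the complex assembles, was at 166 and 232 CPM in shNSi heavy polysomes and 85.2 and 47.9 CPM in shDAP5 heavy polysomes. Total mRNA of SMARCC2 overlapped between the lines, with 82.1 and 79.0 CPM in shNSi and 76.8 and 81.9 CPM in shDAP5, and the change in heavy translation efficiency was -1.45 (SE 0.35, adjusted p = 0.00849). ARID1A, a DNA-binding subunit often lost in tumors, went from ratios of 0.63 and 1.27 to 0.22 and -0.71, a change of -1.05 (SE 0.35, adjusted p = 0.0401). The ARID1A groups did not overlap, although shDAP5 culture 1 stayed above zero. SMARCB1, a small core subunit and tumor suppressor, differs from these. It was at 221 and 179.6 CPM in the heavy polysomes of the shNSi cultures and at 168 and 235 CPM in those of the shDAP5 cultures, its groups overlapped, and its change was 0.12 (SE 0.35, adjusted p = 0.847). SMARCD1, another small subunit and the highest of the SMARC members, stood at 0.14 (SE 0.33, adjusted p = 0.815).

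Both ISWI ATPases, which space nucleosomes into regular arrays, were lower. SMARCA1 had the lowest change of all members. It was at 93.5 and 73.6 CPM in shNSi and 101 and 106 CPM in shDAP5 total mRNA. In heavy polysomes it was at 213 and 287 CPM in shNSi and 113 and 54.5 CPM in shDAP5. Its level was therefore higher in both shDAP5 cultures in total mRNA and lower in both in heavy polysomes. The mean log2 ratio was 1.57 ± 0.55 in shNSi and -0.39 ± 0.79 in shDAP5 (SD, n = 2), and the change was -1.82 (SE 0.37, adjusted p = 0.00643). SMARCA5, the other ISWI ATPase, was at 228 and 372 CPM against 130.2 and 77.1 CPM in heavy polysomes. Its total mRNA was 113 and 111 CPM against 105 and 132 CPM and its change -1.46 (SE 0.37, adjusted p = 0.0108). SMARCAD1 had ratios of 1.01 and 1.5 in shNSi and 0.19 and -0.90 in shDAP5, a change of -1.47 (SE 0.36, adjusted p = 0.0095). Its value in heavy polysomes alone was closer to zero, at -0.98, since its total mRNA value was positive. Of the ISWI pair and SMARCAD1, the shDAP5 culture 2 had the lowest heavy over total ratio in each case.

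All 8 CHD remodelers had negative changes in heavy translation efficiency, with a median of -1.02, and 3 were called. CHD4 had ratios of 0.55 and 1.59 in shNSi and -0.34 and -1.01 in shDAP5, a change of -1.61 (SE 0.37, adjusted p = 0.00824). Both shDAP5 cultures lay below zero. Its total mRNA value was negative too, and its change in heavy polysomes alone was larger. CHD1, a remodeler of transcribed genes, was at -1.30 (SE 0.42, adjusted p = 0.044) and CHD8 at -1.06 (SE 0.35, adjusted p = 0.0393). CHD3, the other NuRD ATPase, had the highest CHD value, -0.60 (SE 0.35, adjusted p = 0.242), from 164 and 296 CPM in shNSi heavy polysomes and 156 and 110.4 CPM in shDAP5. Its groups did not overlap in heavy polysomes, and its change did not pass the test.

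Of the 8 ARID genes, ARID4A had the lowest and ARID5A the highest value. ARID4A, a partner of RB and of the SIN3 repressor, was at 19.4 and 22.2 CPM in shNSi heavy polysomes and 12.2 and 5.21 CPM in shDAP5. With total mRNA at 11.0 and 7.54 CPM and 10.3 and 12.4 CPM, its change was -1.52 (SE 0.41, adjusted p = 0.019). The shDAP5 cultures were far apart, at ratios of 0.25 and -1.21, and culture 2 was the lowest ratio of any of the 8 lowest members. ARID5A, ARID3B and ARID3A, whose proteins bind AT-rich DNA outside the SWI/SNF complex, had values of 0.59, 0.31 and 0.08, none of which passed the test.

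EP300 and EP400 were both lower. EP300, a histone acetyltransferase and transcriptional coactivator, was at 97.3 and 122 CPM in shNSi heavy polysomes and at 67.4 and 34 CPM in shDAP5, with a change of -1.22 (SE 0.39, adjusted p = 0.0393). EP400, the ATPase of the TIP60 complex that exchanges histone variants, was at 112 and 187 CPM against 60.1 and 40.6 CPM, with a change of -1.21 (SE 0.37, adjusted p = 0.029). For both the shNSi cultures lay above the shDAP5 cultures in heavy polysomes.

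Among the demethylases all 16 values were negative and 5 were called. KDM3B, a jumonji-type demethylase, was the lowest, at 127 and 176 CPM in shNSi and 77.5 and 44.1 CPM in shDAP5 heavy polysomes and with a change of -1.32 (SE 0.35, adjusted p = 0.0139). KDM1A, a flavin-dependent demethylase of the CoREST repressor, was at 228 and 306 CPM against 128 and 113 CPM. Its ratios were 1.2 and 1.57 in shNSi and 0.32 and 0.09 in shDAP5, and its change was -1.04 (SE 0.34, adjusted p = 0.0338). The KDM1A cultures agreed more closely within each line than those of KDM3B. KDM5C, an X-linked demethylase, had ratios of 0.83 and 1.33 and 0.25 and -0.17 and did not pass in edgeR, at -0.90 (SE 0.35, adjusted p = 0.0723), while DESeq2 gave an adjusted p of 0.0389. KDM6A, which removes the methyl mark laid down by Polycomb, had ratios of 0.52 and 1.01 and 0.37 and -0.78 and did not pass either, at -0.83 (SE 0.37, adjusted p = 0.121). KDM8 had the highest KDM value, -0.08 (SE 0.37, adjusted p = 0.914). The nearest members on either side of the threshold of 0.05 were KDM4B, called at an adjusted p of 0.0485, and KDM5A, not called at 0.0502.

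No deacetylase was called in heavy translation efficiency by edgeR as set here, and the class I enzymes had values on both sides of zero. HDAC1, a catalytic subunit of the NuRD, SIN3 and CoREST repressors, was at 369 and 401 CPM in shNSi heavy polysomes and at 223 and 220.3 CPM in shDAP5, with total mRNA side by side (159 and 166 CPM against 164 and 159.7 CPM). HDAC2, its close paralog in the same complexes, was at 405 and 431 CPM against 209 and 219 CPM in heavy polysomes. Both had tight groups that did not overlap, and their changes of -0.65 (SE 0.34, adjusted p = 0.189) and -0.74 (SE 0.34, adjusted p = 0.129) did not pass the test over all genes. HDAC3, the deacetylase of the NCoR corepressor, was at 112 and 144 CPM against 115 and 154 CPM, and HDAC8, which acts on cohesin, at 32.6 and 37.9 CPM against 53.8 and 51.6 CPM. Their values were positive, 0.22 and 0.41, with adjusted p of 0.698 and 0.432. HDAC6 was the lowest HDAC, at -0.96 (SE 0.34, adjusted p = 0.0531). It passed the threshold in DESeq2 (adjusted p = 0.0382), with at least 10 counts in every library (0.049) and without shDAP5 culture 1 (0.0166). HDAC7 and HDAC11 were among the 8 highest members, at 0.24 and 0.34.

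The methyltransferases lay on both sides of zero and had no call by edgeR as set here. All 5 KMT2 genes were negative, with a median of -0.81, and all 3 KMT5 genes, which methylate histone H4, were positive, up to 0.45. KMT2D had ratios of 0.47 and 1.56 in shNSi and 0.41 and -0.99 in shDAP5 and a change of -1.17 (SE 0.43, adjusted p = 0.0765). Its call turned on the filter, with an adjusted p of 0.0157 without a filter on low counts and 0.0166 with at least 10 counts in every library. KMT2A had ratios of 0.03 and 1.37 and 0.39 and -1.09, so that the groups overlapped, and a change of -0.90 (SE 0.50, adjusted p = 0.249). KMT2C, with a change of -0.81 (SE 0.47, adjusted p = 0.26), overlapped in the same way. For these 3 genes culture 2 of each line stood at the extremes, highest in shNSi and lowest in shDAP5. Without shDAP5 culture 1 all 3 were called, with adjusted p of 0.000621 (KMT2D), 0.00301 (KMT2A) and 0.00094 (KMT2C). SETD2, which methylates histone H3 along transcribed genes, had ratios of 0.39 and 1.13 and 0.16 and -0.58 and a change of -0.83 (SE 0.35, adjusted p = 0.1). SETD9 had the highest value of all members, from 3.36 and 3.27 CPM in shNSi and 4.51 and 6.02 CPM in shDAP5 heavy polysomes, with a change of 0.75 (SE 0.39, adjusted p = 0.188). Both shDAP5 cultures of SETD9 lay above both shNSi cultures, and the gene was at under 10 CPM in every library.

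**Figure D2:**
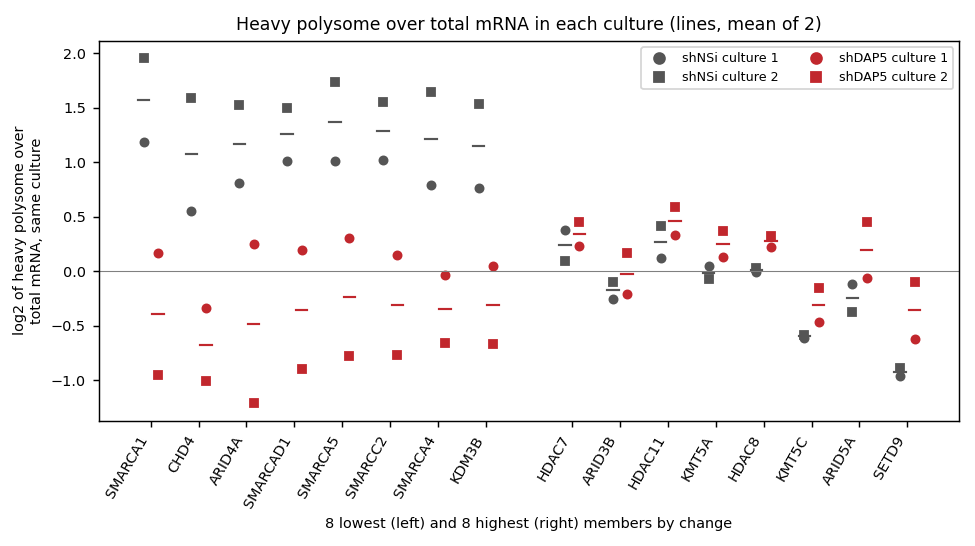
Log2 ratio of heavy polysome over total mRNA (y axis) in each culture for the 8 members with the lowest and the 8 with the highest change (x axis), grey for shNSi, red for shDAP5, circles for culture 1, squares for culture 2 and short lines for the mean of 2. In the 8 on the left the shNSi cultures lie between 0.55 and 1.96 and the shDAP5 cultures between -1.21 and 0.31. In the 8 on the right shDAP5 culture 2 is the higher of the shDAP5 pair.

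Members with long coding sequences had the lower values. The median coding length, from GENCODE 29, was 3427.5 nucleotides for the members and 1413 for all genes tested, with members ranging from 897 (SETD9) to 16611 (KMT2D). Across the 74 members Spearman's rho between coding length and the change in heavy translation efficiency was -0.59 (Pearson's r with log10 length -0.63), and across 12473 genes it was -0.71. Genes of 1 library share its depth and its fractionation, so these are descriptions. Of the 24 members with the shortest coding sequences (897 to 2655 nucleotides) 1 was lower (4.17%), where 7.12% of 6993 other genes in that length range were lower. Of the 25 of middle length (2823 to 4680) 9 were lower (36%), where 30.6% of 1338 other genes were. Of the 25 longest (4770 to 16611) 9 were lower (36%), where 36.2% of 575 other genes were. The medians of members and other genes were 0.10 and -0.09, -0.83 and -0.76, and -1.0 and -0.97 in the 3 ranges. Within each range, then, the members' shares and medians were near those of other genes of like length. The exception among the short members was KDM1A, with 2556 nucleotides. The 3 longest members, KMT2D, KMT2C (14733) and KMT2A (11907), were not called by edgeR as set here, though KMT2D was under other filters on low counts. Results for all 3 without shDAP5 culture 1 are given with their family.

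**Figure D3:**
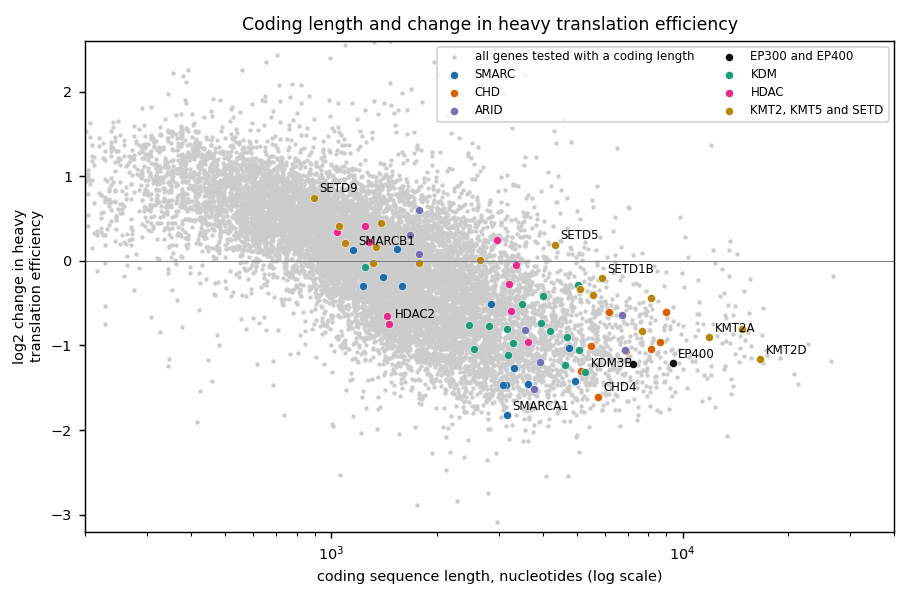
Coding sequence length (x axis, nucleotides, log scale) against change in heavy translation efficiency (y axis, log2) for all genes with a coding length (grey) and the 74 members (coloured by family). Members follow the slope of the grey cloud, with SMARCA1 (-1.82) towards its lower side and SETD5 (0.19) and SETD1B (-0.21) towards its upper side for their length.

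When each library's trend with coding length was taken out by offsets, 1 member stayed lower in heavy translation efficiency and 2 were higher, where 2.33% of genes were lower and 1.73% higher, and the median member change was -0.01. SMARCA1 was the member lower, at -1.13 (adjusted p = 0.0166), with 3162 nucleotides of coding sequence. SETD5, a large SET-domain protein mutated in intellectual disability, was higher at 1.02 (adjusted p = 0.0215). Its heavy polysome levels were 133 and 119 CPM in shNSi and 205 and 127 CPM in shDAP5, which overlap, and its value without the offsets was 0.19 (SE 0.34, adjusted p = 0.748). HDAC7, a class II deacetylase, was higher at 0.91 (adjusted p = 0.0463), with overlapping levels of 138 and 104 CPM and 115 and 129.9 CPM. Total mRNA of SETD5 was 159 and 114 CPM in shNSi and 165 and 171 CPM in shDAP5, which do not overlap, and its change in heavy polysomes alone was 0.58 (SE 0.34, adjusted p = 0.176). In heavy polysomes alone the offsets left CHD4 lower at -1.14 (adjusted p = 0.0462) and SETD5 higher at 1.39 (adjusted p = 0.00736), where 7.24% of genes were lower and 4.95% higher.

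In the control cells most of these mRNAs were more abundant on heavy than on light polysomes. Within the shNSi cultures 46 members were higher in heavy polysomes (62.2%) and 3 lower (4.05%), where 29.8% of 14798 genes were higher and 32.2% lower, and the median member difference was 1.13 against -0.13. SMARCA1 was at 19.4 and 21.8 CPM in light, 21.1 and 37.9 CPM in moderate and 213 and 287 CPM in heavy polysomes, and its difference of heavy over light was 3.38 (SE 0.40, adjusted p = 6.48e-08). SMARCA4 went from 38.2 and 53.4 CPM in light to 41.3 and 88.9 CPM in moderate and 288 and 581 CPM in heavy polysomes, a difference of 2.97 (SE 0.42, adjusted p = 4e-07). Both thus increased along the gradient towards the heavy pool in each culture. SETD9, KMT5C and ARID5A were the 3 members lower in heavy polysomes, at -1.45, -1.22 and -0.90 (adjusted p = 0.00154, 0.00558 and 0.0204). Against heavy, the moderate pool was lower for 45 members (60.8%) and higher for 1, SETD9 (1.35%), where 23.2% of 14187 genes were lower and 17.2% higher. With coding length offsets 16 members were lower and 16 higher for heavy over light (median 0.0228), where 5647 of 12255 genes were called, and 14 lower and 12 higher for moderate over heavy (median 0.05), where 3625 of 12110 were called. Without TMM the median for heavy over light was 0.77, against -0.49 over all genes, and with no block for the culture 24 members were lower for moderate over heavy. These 2 gradient comparisons share the heavy libraries with each other and with the comparison of the lines, so members that stand high in shNSi heavy polysomes enter all of them.

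**Figure D4:**
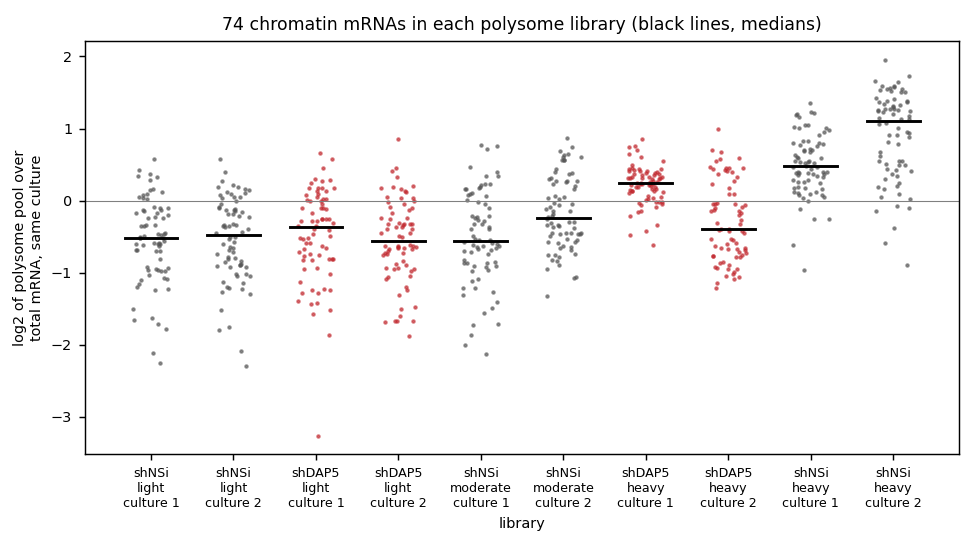
Log2 ratio of each polysome pool over total mRNA of the same culture (y axis) for the 74 members (points, grey for shNSi and red for shDAP5) in the 10 polysome libraries (x axis), with black lines at the medians. Medians lie between -0.56 and -0.24 in the light and moderate pools, at 0.48 and 1.11 in shNSi heavy polysomes and at 0.24 and -0.39 in shDAP5 heavy polysomes.

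In light polysomes no member passed the test after DAP5 silencing. Of the 74, 0 were lower and 0 higher, where 0% of 15529 genes were called, 3 members and 1330 genes (8.56%) had an unadjusted p under 0.05, and DESeq2 called 105 genes and 0 members. The median member change was 0.06. SMARCA1 had the lowest p. It was at 19.4 and 21.8 CPM in shNSi and 43.0 and 32.7 CPM in shDAP5 light polysomes, with a change of 0.87 (SE 0.27, adjusted p = 0.504). KMT5C, a methyltransferase of heterochromatin, was at 7.11 and 8.60 CPM against 13.1 and 13.8 CPM, and CHD1 at 39.3 and 28.0 CPM against 49.1 and 61.5 CPM. In these 3 both shDAP5 cultures stood above both shNSi cultures, with changes of 0.77 for KMT5C and 0.71 for CHD1 (adjusted p = 0.55 and 0.559). Light translation efficiency, light polysomes relative to total mRNA, had 0 members lower and 0 higher, where 0% of 15967 genes were called, with 4 members and 833 genes (5.22%) at an unadjusted p under 0.05 and no gene called by DESeq2. Against the shNSi moderate pool, whose code the shDAP5 light libraries carry, 10 members were lower and 2 higher in light polysomes, where 3940 of 15431 genes were called. Without shNSi culture 1 there were 8 lower and 13 higher, where 4678 of 16190 genes were called.

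The heavy over light ratio itself differed between the lines. The limit on the pools given for heavy polysomes holds here too. It was lower in shDAP5 for 13 members (17.6%) and higher for 0, where 5.21% of 15878 genes were lower and 1.54% higher, and the median member change was -0.70 against 0.05. The 13 were 6 SMARC, CHD1 and CHD4, ARID4A and ARID4B, KDM3B and KDM5B, and HDAC6. Without shDAP5 culture 2 there were 0, where 2 of 16584 genes were called. Without shNSi culture 2 there were 6, where 747 of 16578 genes were called, and without shNSi culture 1 there were 31, where 2929 of 16453 were called. With coding length offsets 1 was lower, where 60 of 12588 genes were called. With the shNSi moderate pool in place of the shNSi light pool, since the shDAP5 light libraries carry its code, 26 were lower and 6 higher, where 3762 of 15754 genes were called.

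Other chromatin genes outside the naming rule, in 10 lists of complexes and enzyme classes, gave 22 lower and 3 higher of 160 tested in heavy translation efficiency, with a median of -0.35, and 0 calls in total mRNA. Over all genes 8.23% were lower and 4.85% higher in heavy translation efficiency. These shares do not take coding length into account. Of the genes named next, ATRX (7476 nucleotides), DNMT1 (4848), PBRM1 (4746) and ATAD2 (4170) have long coding sequences and ZNHIT1 (462) a short one. In the longer length ranges given above, 30.6% and 36.2% of genes other than the members were lower. Remodelers of the INO80, SRCAP, TIP60 and ISWI groups, listed together with ATRX and HELLS, which belong to none of these groups, had 8 lower and 3 higher of 21, with ATRX, a remodeler of heterochromatin, lowest at -1.82 (adjusted p = 0.0408) and ZNHIT1, a small SRCAP subunit, highest at 1.24 (adjusted p = 0.0201). Bromodomain readers had 5 of 15 lower, led by ATAD2 at -1.87 (adjusted p = 0.00642), an ATPase that binds acetylated histones, and the remaining SWI/SNF subunits had 2 of 18 lower, PBRM1 lowest at -1.47 (adjusted p = 0.0173). The enzymes of DNA methylation had 2 of 7 lower, with DNMT1, the maintenance methyltransferase, at -1.58 (adjusted p = 0.00824). Partners of KMT2 and SETD1 had 2 of 12 lower, other histone methyltransferases 2 of 20 and other acetyltransferases 1 of 12. Polycomb genes had 0 of 27 called, partners of HDAC1 and HDAC2 0 of 21 and sirtuins 0 of 7, with medians of 0.05, -0.33 and 0.31. The partners of HDAC1 and HDAC2 thus had no call, like the 2 enzymes themselves, and the Polycomb median lay near that of all genes.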

How the data were processed

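The authors deposited whole-number read counts per gene symbol, without normalization, for 14 libraries of MDA-MB-231 cells. The submitters' processing notes name STAR 2.6.0a, limma and the hg19 build. The name of the deposited table gives featureCounts as the counter and carries the tag rev, which may stand for a reverse-strand setting. The counter's version, the annotation and the treatment of reads shared by paralogs are not given in the sources used here, so close paralogs such as HDAC1 and HDAC2 or SMARCA2 and SMARCA4 may share reads. No count column was left out. Library totals were 25899838 to 30795910, and precision is set by the spread between the 2 cultures of a group, which the tests moderate across genes.

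In R 4.3.3, all genes kept by filterByExpr were scaled with TMM factors and fitted in edgeR 4.0.16, whose robust quasi-likelihood test was applied gene by gene, with p-values adjusted over all genes tested by the Benjamini-Hochberg method and a threshold of 0.05. All 74 members passed the filter in each comparison. Total mRNA, heavy polysomes and light polysomes were each fitted on their 4 libraries. A change in translation efficiency was taken from 1 fit of polysome and total libraries, with culture terms, as the fraction by shRNA interaction. The gradient of the shNSi cultures was fitted with the culture as a block, since its pools come from the same lysate. Levels are CPM with TMM factors over all 14 libraries, and log2 ratios add 0.25 CPM to both terms. Fitted changes use the factors of their own comparison and can differ from the printed ratios. Coding lengths and start contexts come from GENCODE 29 by symbol. The tests were tried on simulated data. Alternatives were DESeq2 1.42.0, library size without TMM, limma 3.58.1 on quantile-normalized log2 of CPM plus 1, no filter, the replicate number as a block, a minimum of 10 counts per library, other control pools, all 14 libraries in 1 fit, coding length offsets (lowess span 0.3), members with at least 500 counts in every total library, and each culture left out.

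The members, the lists and the tests were chosen with earlier results of these data known. Named were EIF4G2, a set of well-known regulators, the 8 lowest and 8 highest members in heavy translation efficiency, the 3 of lowest p in total mRNA and in light polysomes, the 3 longest and 3 shortest, and the extremes of each family and list. SMARCA2, CHD8, ARID3A, SETD1B, SETD5, KDM4B and KDM5A were named after their values were seen.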

Additional observations from a re-analysis of the deposited data

Results flagged for a closer look

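The heavy over light ratio differed between the lines for several chromatin mRNAs by the interaction test of edgeR. In all, 13 members were lower in shDAP5 and 0 higher. SMARCA1 had the lowest value, -2.42 (SE 0.42, adjusted p = 0.0175), followed among the 8 lowest members of heavy translation efficiency by CHD4 at -1.96 (SE 0.51, adjusted p = 0.0299) and ARID4A at -1.91 (SE 0.46, adjusted p = 0.0233). The other ISWI ATPase, SMARCA5, was at -1.81 (SE 0.44, adjusted p = 0.024) and the SWI/SNF scaffold SMARCC2 at -1.73 (SE 0.41, adjusted p = 0.0229). KDM3B, SMARCAD1 and SMARCA4 were at -1.66, -1.66 and -1.55, with adjusted p of 0.027, 0.0266 and 0.0412. For SMARCA1 the log2 ratio of light over total was -2.25 and -1.75 in the shNSi cultures and -1.22 and -1.69 in the shDAP5 cultures, with both shDAP5 cultures above both shNSi cultures, while its heavy over total ratio was lower in both. These values share the heavy libraries with the translation efficiencies above and are not independent of them. Without a term for each culture 0 members and 0 of 15878 genes were called. With coding length offsets 1 member and 60 genes were called, and without shDAP5 culture 2 there were 0 members and 2 genes. Against the shNSi moderate pool, whose code the shDAP5 light libraries carry, 26 members were lower and 6 higher, where 3762 of 15754 genes were called.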

How the results depend on the processing

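Each line has 2 cultures with unlike heavy libraries. Leaving out each culture in turn gave from 0 to 30 members lower in heavy polysomes, from 0 to 39 lower and 0 to 2 higher in heavy translation efficiency, 0 to 8 lower and 0 to 13 higher in light polysomes, and 0 to 4 lower and 0 to 2 higher in light translation efficiency. For the heavy over light ratio between lines it gave 0 to 31 lower, 0 to 1 higher and medians from -1.06 to -0.43. The cause was not tested. The lone culture is then assumed to vary like the other line. The shNSi gradients were not refitted without a culture, since 1 pair of pools leaves no residual spread. Total mRNA had 0 calls under every alternative.

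Library size without TMM gave 7 lower and 3 higher in heavy polysomes, 0 lower in heavy translation efficiency, 5 lower and a median of 0.77 for heavy over light in shNSi, and 3 higher with a median of -0.70 for moderate over heavy. limma gave 16 lower and 1 higher in heavy polysomes and 2 lower in heavy translation efficiency. DESeq2 gave 0 higher for moderate over heavy, and at least 10 counts in every library gave 1 higher in heavy polysomes and 2 higher for moderate over heavy. Without a term for each culture 0 were lower in heavy translation efficiency and 0 in the heavy over light ratio between lines. With the moderate pool for the light pool in that ratio, a choice made after seeing the data, 26 were lower and 6 higher. DESeq2 called 22 lower in heavy translation efficiency and 27 in heavy polysomes.

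With the shNSi moderate pool as control, 0 were lower in heavy polysomes (median 0.40) and 0 in heavy translation efficiency (median 0.27), and for light libraries 10 were lower and 2 higher in light polysomes and 12 lower and 2 higher in light translation efficiency. With summed shNSi pools, 1 was lower in heavy polysomes (median -0.15), 0 in heavy translation efficiency (median -0.15) and 1 in light translation efficiency.

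Coding length offsets gave 1 lower and 1 higher in heavy polysomes (median 0.14), 1 lower and 2 higher in heavy translation efficiency (median -0.0147) and a median of -0.0877 in light translation efficiency. They gave 16 lower and 16 higher for heavy over light in shNSi (median 0.0228), 14 lower and 12 higher for moderate over heavy (median 0.05), and 1 lower with a median of 0.14 for the ratio between lines.

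The replicate numbers are shared by both lines, but the labels tie no shNSi culture to an shDAP5 culture, and the deviations of same-numbered cultures correlated at r = -0.11 in total mRNA, 0.06 in heavy and 0.05 in light polysomes and -0.24 in heavy over total, across genes. With the replicate block 9 members were lower in heavy translation efficiency and 1 was higher in heavy polysomes. With offsets and the replicate block there were 5 lower and 12 higher in heavy polysomes (median 0.14) and 1 lower and 2 higher in heavy translation efficiency (median -0.0143). The numbers crossed, a choice made after seeing the data, gave 36 lower in heavy translation efficiency. In the shNSi gradient, the fit with no replicate block gave 24 lower and 0 higher for moderate over heavy.

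Single members changed sign in heavy translation efficiency as follows. Against the moderate pool the log2 changes were KMT2A 0.40, KMT2D 0.41, SETD2 0.23, EP300 0.34, EP400 0.73, KDM1A 0.95, KDM5C 0.75, KDM6A 0.16, HDAC1 0.68, HDAC2 0.39, CHD4 0.90, SMARCA4 1.17, ARID1A 0.54, SMARCA1 1.14, ARID4A 0.0129, SMARCAD1 0.26, SMARCA5 1.02, SMARCC2 0.90, KDM3B 0.69, KMT2C 0.37, CHD3 0.56, HDAC6 0.71 and KDM8 0.12, and on the other side HDAC3 -0.22, HDAC11 -0.0802, HDAC8 -0.30, ARID5A -0.0146, SETD9 -0.31 and SMARCD1 -0.0657. Against the summed pools HDAC1 was at 0.0106, CHD3 at 0.0224 and KDM8 at 0.12, and without TMM KDM8 was at 0.14. With offsets KMT2A was at 0.16, SETD2 at 0.15, SMARCB1 at -0.0108, KMT2C at 0.29 and CHD3 at 0.33, and with the replicate block added the values were 0.16, 0.15, -0.0109, 0.29 and 0.33. Leaving out cultures, KDM8 ran from -0.42 to 0.25, SMARCB1 from -0.25 to 0.48, HDAC3 from -0.0282 to 0.46 and SMARCD1 from -0.0059 to 0.28. The cause of these changes was not tested.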
